A study of Mus musculus with 16 samples.

Results

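Mouse C3H10T1/2 cells that expressed histone H3.3 with both the G34W and the K27R change were set against the same cells expressing wild-type H3.3. C3H10T1/2 is an established mouse embryonic cell line of mesenchymal type. The comparison rests on 4 libraries, 2 of the double mutant and 2 of wild type, out of 16 libraries of 8 groups. A gene was included when its value averaged at least 10 over these 4 libraries, which 12557 of the 20325 genes in the table did; 7768 did not. The included gene nearest the limit averaged 10.0081 and the nearest one left out 9.98943. The rule uses no difference between the groups.

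In every group a lentivirus carried the histone transgene into the cells for 2 days, and puromycin at 1.5 µg/ml then selected the cells for 4 days. Controls therefore carried the virus, the drug selection and an added wild-type H3.3 as well, and all cells kept their own H3 genes. The 3 groups compared with each other below are H3.3 G34W K27R, in which both changes sit on 1 protein, H3.3 G34W alone and H3.3 K27R alone, each also beside H3.3 wild type. The remaining groups, H3.3 G34R, H3.3 G34W K36R, H3.1 G34W and H3.1 wild type, entered the fit and are shown where a level in them bears on a result. Polyadenylated RNA was sequenced. Whether libraries with 1 label were grown as separate cultures or clones is not stated, and p-values can then rest on technical spread alone.

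H3.3 is the form of histone H3 that is placed on chromatin outside DNA replication. The Polycomb complex PRC2 adds methyl groups to lysine 27 of its tail, a mark that keeps developmental genes and the Cdkn2a and Cdkn2b locus silent in many cell types, and an arginine at that place cannot be methylated by PRC2. Glycine 34 lies beside lysine 36, which SETD2 and the NSD enzymes methylate, and a bulky tryptophan at 34 is known to hinder methylation of lysine 36 on the same tail. G34W is the hallmark change of giant cell tumour of bone. The codons concerned encode the same amino acids in both mouse genes for H3.3, although codon 27 differs in its last base. They are shown here from codon 27 to codon 36, counted without the start codon, with codons 27, 34 and 36 in capitals; they come from the reference transcripts, since the sequence of the transgene is not given in the sources used here.
H3f3a: AAGagtgcgccctctactggaGGGgtgAAG
H3f3b: AAAagcgcgccctctaccggcGGGgtgAAG
The table counts reads per gene and does not show which codon a read carried. H3f3a had deposited values of 11943 and 12484 in the double mutant and 16420 and 16327 in wild type, and H3f3b had 22617 and 22994 in the double mutant and 25502 and 25555 in wild type. Neither passed the test (adjusted p = 0.404 and 0.649). These values are no check of the transgene whatever the test gives, since both groups carried an added H3.3.

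Values are RSEM estimates per gene that the authors scaled to a common median, and they are called the level of a gene below. Depth in the 4 compared libraries was 28.8 to 33.01 M reads by estimate, and 3 reads correspond to a level of 3.33 and 2.92 in the double mutant libraries and of 2.90 and 2.91 in the wild-type libraries; this floor covers counting error only. The double mutant pair differed more than sampling allows, with a chi-square of 1.40 per degree of freedom in 2301 genes whose reads were whole. By the same measure the wild-type pair showed no more than sampling noise (chi-square p = 0.910 over 2386 genes), although all 11927 genes with enough reads, fractional estimates included, gave a chi-square p of 3.3e-64. The wild-type pair was averaged and counted as 1 sample, so its mean has no SD. The pairs of G34W, H3.1 G34W and H3.1 wild type stood far apart, at 54.1, 47.1 and 37.4, and the other 5 pairs of the series are called close pairs below. Markers of mesenchymal cells were expressed as the label of the line says: the 16 genes summed to 897111 and 897085 in the double mutant and 916071 and 915160 in wild type, and of these Nt5e alone was at or under the floor in both groups. The 9 blood and macrophage markers summed to 77.7 and 87.6 in the double mutant and 125 and 124 in wild type. Of these, Ptprc, Cd3e, Emr1 and Hbb-b1 were among those at or under the floor in both groups, and Lyz2, a macrophage lysozyme, fell to 7.76 and 16.5 in the double mutant, against 93.3 and 83.2 in wild type (adjusted p = 0.0141).

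Cells with the double mutant expressed interferon-stimulated and antigen presentation genes far above wild type, held mitotic genes far below it, and expressed the cell cycle inhibitors Cdkn2a and Cdkn2b, which wild-type cells hardly did. By limma over all groups with Benjamini-Hochberg adjustment, 838 genes were higher in the double mutant (6.67% of the 12557 tested) and 1020 were lower (8.12%), 1858 in all (14.8%) at an adjusted p under 0.05. At an unadjusted p under 0.05 there were 3526. The changes were large: 561 of the higher genes and 837 of the lower ones exceeded 2-fold, and 108 and 41 exceeded 32-fold. The median log2 fold change of all genes was -0.0039. Every called gene kept the 2 groups apart with no overlap between libraries, but so did 11154 of all genes, because the libraries within each group lay close together. Counting every close pair as 1 sample left 143 genes called, 81 higher and 62 lower. Without replicate 1 of the double mutant 935 genes were called and without replicate 2 932, and without replicate 1 or 2 of H3.3 G34W 2916 and 2915.

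**Figure D1:**
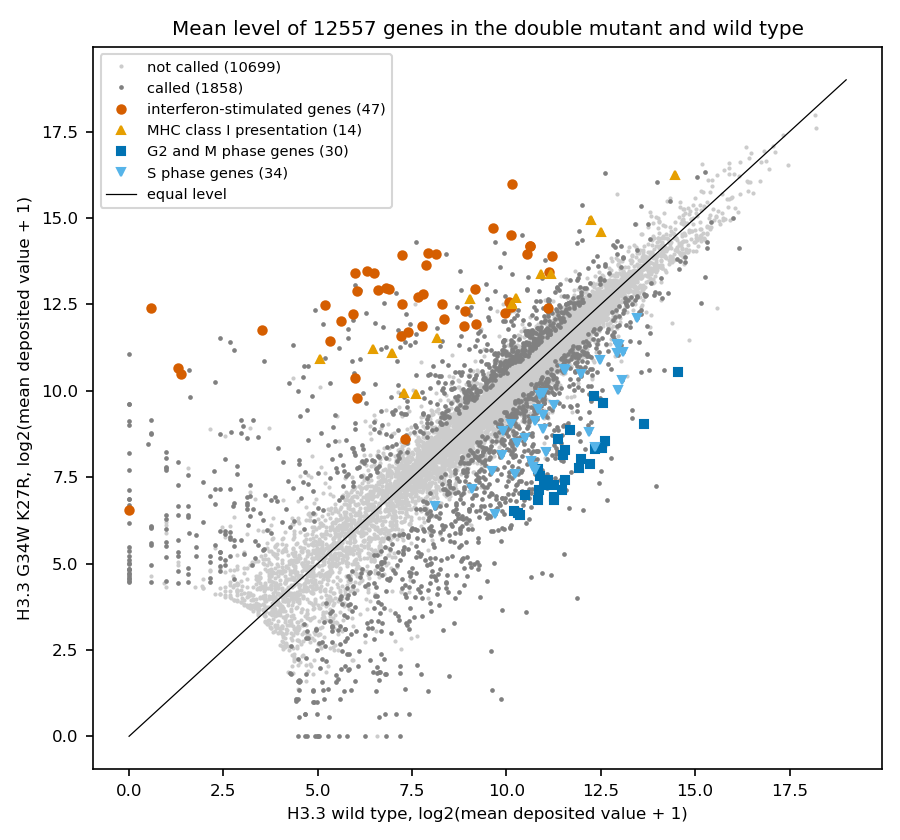
Mean level of each of the 12557 genes in the double mutant (vertical axis) against wild type (horizontal axis), both as log2(mean deposited value + 1). Light points were not called, dark points were the 1858 genes called, coloured points are 4 gene lists, and the line marks equal levels. The 47 interferon-stimulated genes lie above the line and the 30 G2 and M phase genes lie below it.

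Promoters of the groups that moved together are shown first, as the letters nearest the genes' starts. They come from RefSeq on GRCm38.p6, whereas the authors counted on mm9, and span 250 bases before to 50 after the annotated start; 8905 of the 12557 genes matched. Capitals in the first 3, from interferon-induced genes, mark GAAA followed by any 2 bases and GAAA, the core of the interferon-stimulated response element, on either strand, where neighbouring matches may overlap. In Cxcl10 they also mark GGGA, any 2 bases and TTCC, a core of NF-kB sites, which does not overlap the other match.
Rsad2 (chr12:26456403-26456702, minus strand): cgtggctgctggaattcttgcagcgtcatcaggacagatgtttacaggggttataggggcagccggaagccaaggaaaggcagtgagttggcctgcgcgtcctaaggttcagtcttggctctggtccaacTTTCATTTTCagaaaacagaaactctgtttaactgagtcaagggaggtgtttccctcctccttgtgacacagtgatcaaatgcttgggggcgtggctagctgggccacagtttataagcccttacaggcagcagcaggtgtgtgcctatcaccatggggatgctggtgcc
Isg15 (chr4:156200769-156201068, minus strand): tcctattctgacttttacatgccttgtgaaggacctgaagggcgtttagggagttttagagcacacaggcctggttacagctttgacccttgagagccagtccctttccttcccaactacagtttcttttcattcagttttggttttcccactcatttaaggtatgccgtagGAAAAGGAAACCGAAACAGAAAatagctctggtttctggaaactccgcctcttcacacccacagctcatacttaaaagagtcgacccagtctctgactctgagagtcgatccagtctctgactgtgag
Cxcl10 (chr5:92348840-92349139, minus strand): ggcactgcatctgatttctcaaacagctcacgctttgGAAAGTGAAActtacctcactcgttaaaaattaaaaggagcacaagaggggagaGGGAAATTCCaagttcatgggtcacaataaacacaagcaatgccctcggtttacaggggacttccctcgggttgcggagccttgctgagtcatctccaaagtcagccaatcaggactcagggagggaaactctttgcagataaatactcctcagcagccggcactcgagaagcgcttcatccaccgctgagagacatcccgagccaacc
In the next 3, from mitotic genes, capitals mark TTTGAA, the core of the cell cycle homology region through which mitotic genes are held silent in resting cells.
Ccnb2 (chr9:70421505-70421804, minus strand): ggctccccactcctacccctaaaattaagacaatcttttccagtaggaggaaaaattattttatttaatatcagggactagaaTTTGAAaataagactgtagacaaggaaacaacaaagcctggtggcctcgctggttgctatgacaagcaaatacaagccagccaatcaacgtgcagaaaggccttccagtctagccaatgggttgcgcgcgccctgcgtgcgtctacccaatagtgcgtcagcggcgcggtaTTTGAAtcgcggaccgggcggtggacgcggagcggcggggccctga
Cdc20 (chr4:118437294-118437593, minus strand): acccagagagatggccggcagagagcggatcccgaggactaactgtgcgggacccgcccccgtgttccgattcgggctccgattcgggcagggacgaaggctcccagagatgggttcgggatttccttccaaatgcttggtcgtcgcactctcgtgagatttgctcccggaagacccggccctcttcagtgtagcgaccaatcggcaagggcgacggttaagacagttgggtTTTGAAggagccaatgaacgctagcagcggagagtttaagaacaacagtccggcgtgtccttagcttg
Plk1 (chr7:122159185-122159484, plus strand): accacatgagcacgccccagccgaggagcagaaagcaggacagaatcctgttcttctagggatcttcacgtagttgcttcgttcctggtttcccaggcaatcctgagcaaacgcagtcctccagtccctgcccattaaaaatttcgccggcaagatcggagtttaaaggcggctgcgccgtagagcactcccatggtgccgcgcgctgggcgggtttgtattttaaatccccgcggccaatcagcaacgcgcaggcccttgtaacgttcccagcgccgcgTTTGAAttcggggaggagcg
Over both strands, the interferon element was in the window of 20 of 34 interferon-stimulated genes with a window (58.8%), against 3.796% of all matched genes and 12.9% of the genes called higher. TTTGAA was in 20 of 25 G2 and M phase genes (80%), against 14.1% of all matched genes and 24.2% of the genes called lower. TTTCGCG, a core of E2F sites, was in 7 of 27 S phase genes (25.9%), against 2.10% of all. A match is a description of letters, not of a bound site, and these 6 genes were chosen for display after their values were seen. All 6 windows shown hold a match, which other genes named below lack. The windows of Oasl2 and Psmb9 held no interferon element, and that of Ccnb1 held no TTTGAA.

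The interferon-stimulated genes, which encode antiviral proteins and the factors that switch them on, were the list with the highest median. All 47 tested members of 48 were higher in the double mutant, beside 6.67% of all genes, with a median log2 fold change of 5.05 and single values between 1.28 and 11.81. With the 4 members that averaged at most 3 reads in wild type set to a lower bound for counting error, the median was 5.03. Rsad2, which encodes viperin, an enzyme that makes a chain terminator of viral RNA synthesis, had levels of 5421 and 5259 in the double mutant and 0.968 and 0 in wild type. That is a ratio of 11032 with a counting interval of 1977 to 435220, since wild type rests on 1 read (adjusted p = 0.000228). Mx1, a GTPase that blocks influenza virus in mice, had 3555 and 3371 in the double mutant and 7.45 and 13.6 in wild type, a log2 difference of 8.23 ± 0.57 (SE, adjusted p = 2e-05). Both double mutant libraries exceeded both wild-type libraries by far for Mx1, and the libraries of each group stayed near each other.

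Oasl2, of the family that detects double-stranded RNA, had levels of 10998 and 10816 in the double mutant and 67.8 and 56.2 in wild type (adjusted p = 0.00108). Zbp1, a sensor of left-handed nucleic acid that can start cell death, had 5723 and 5814 in the double mutant and 43.6 and 28.1 in wild type (adjusted p = 0.00142). Factors that carry the interferon signal to DNA were already present in wild type. Stat2 had 18602 and 18623 in the double mutant and 1594 and 1579 in wild type. Irf9 had 5506 and 5540 in the double mutant and 1089 and 1126 in wild type, and Irf7, an amplifier of interferon production, had 5832 and 5810 in the double mutant and 173 and 126 in wild type. Stat2, Irf9 and Irf7 were called (adjusted p = 0.00265, 0.00187 and 0.00481) and were picked after their values were seen. Members of near-identical families, such as Oas1, Ifit, Gbp, Trim30 and Tgtp, share reads that RSEM divides among copies, so their single levels are uncertain.

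The interferon list also separated the double mutant from each single mutant. Its summed level was 438580 and 428500 in the double mutant, 20084 and 18206 in G34W, 81491 and 84073 in K27R and 23530 and 23512 in wild type. Over the 14 libraries of the other 7 groups it ran from 15021 to 84073, so the lower double mutant library was 5.10 times the highest of them. Against G34W all 47 members were higher, beside 9.56% of all genes, and against K27R 39 were, beside 12.0%, with none lower in either. Rsad2 showed the order: 5421 and 5259 in the double mutant, 0 and 19.7 in G34W, 405 and 394 in K27R and 0.968 and 0 in wild type. Mx1 had 3555 and 3371 in the double mutant, 15.6 and 55.1 in G34W, 428 and 433 in K27R and 7.45 and 13.6 in wild type. All 3 comparisons use the same double mutant libraries. With close pairs counted as 1 sample, 19 of the 47 passed against wild type, and without either double mutant library 46 did.

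**Figure D2:**
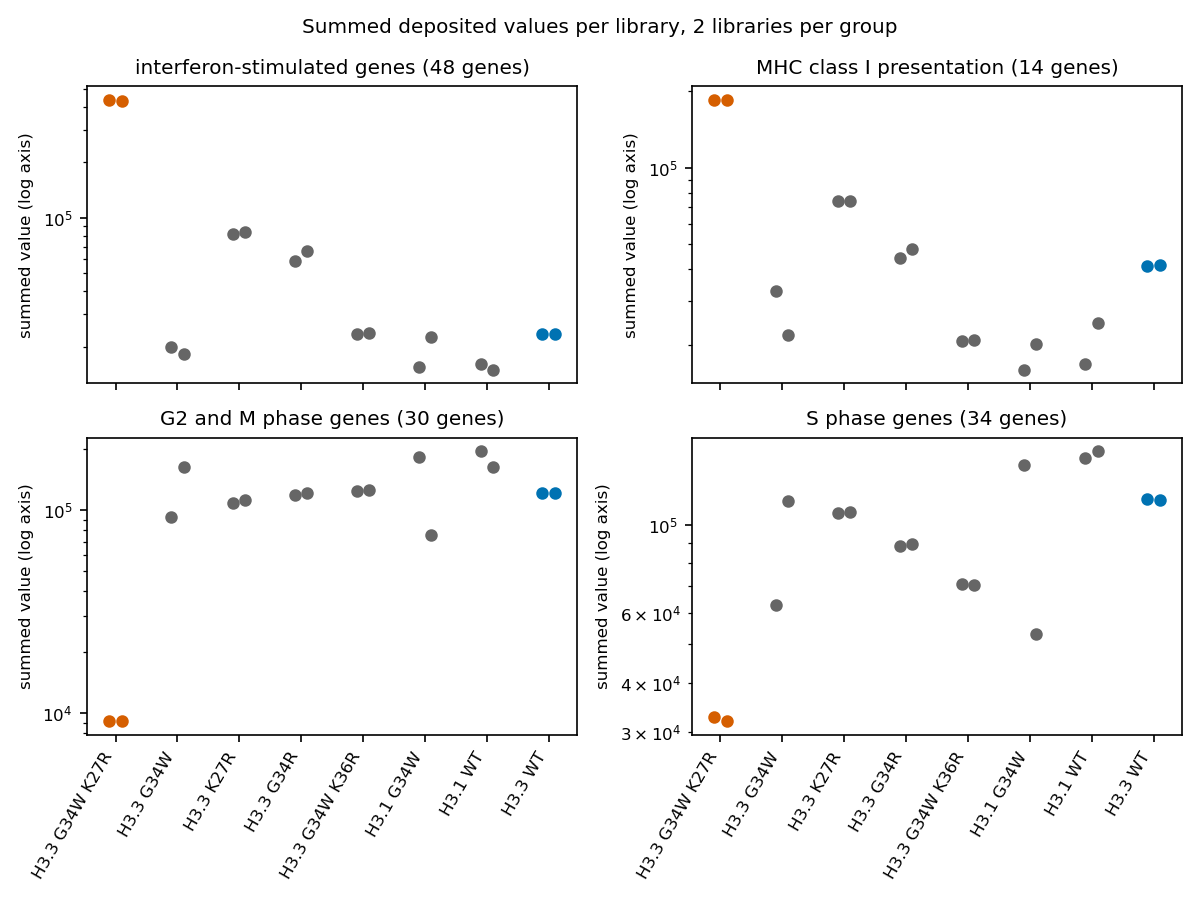
Summed level of 4 gene lists in each of the 16 libraries, on log axes, 1 point per library and 2 per group, with the double mutant in orange, wild type in blue and the other groups in grey. The double mutant libraries are the highest for interferon-stimulated and MHC class I genes and the lowest for G2 and M phase and S phase genes.

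The machinery that cuts proteins and shows the pieces on MHC class I rose as a whole. All 14 genes of the list were higher in the double mutant, beside 6.67% of all genes, with a median log2 fold change of 2.56 and single values from 1.78 to 5.87. Psmb8, a catalytic subunit of the immunoproteasome, had levels of 1907 and 2001 in the double mutant and 32.9 and 31.96 in wild type, a log2 difference of 5.87 ± 0.68 (SE, adjusted p = 0.000371). Psmb9, its partner subunit, had 2364 and 2348 in the double mutant and 81.3 and 94.0 in wild type (adjusted p = 0.00441). Tap1, the peptide pump of the endoplasmic reticulum, had 6299 and 6536 in the double mutant and 513 and 534 in wild type. The groups did not overlap for any of these, which was also so for 11154 of all 12557 genes. Nlrc5, which drives transcription of class I genes, had 2242 and 2134 in the double mutant and 115 and 135 in wild type, and the class I heavy chain gene H2-K1 had 31394 and 31873 in the double mutant and 4811 and 4837 in wild type (adjusted p = 0.000119 and 0.000486). For H2-K1 the single mutants lay to either side of wild type, at 1832 and 1332 in G34W and at 9780 and 9209 in K27R. All 14 genes were higher than in G34W and 13 than in K27R. With close pairs counted as 1 sample 2 of the 14 passed against wild type.

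Cxcl9, Cxcl10, Cxcl11 and Ccl5 rose and Cxcl1 and Cxcl5 fell. Cxcl9, Cxcl10 and Cxcl11 are the ligands of CXCR3 and are classical interferon targets. Cxcl9 had levels of 2137 and 2151 in the double mutant and 0 and 0 in wild type, at least 738-fold higher when wild type is set to the floor of 3 reads over its libraries. Cxcl10 had 2744 and 2656 in the double mutant and 4.84 and 5.81 in wild type, a log2 difference of 8.74 ± 0.83 (SE, adjusted p = 0.000133). Cxcl11 had 576 and 543 in the double mutant and 0 and 0 in wild type, at least 192-fold higher. Ccl5, which attracts T cells and monocytes, had 1300 and 1136 in the double mutant and 3.87 and 3.87 in wild type (adjusted p = 1.8e-05). In the opposite direction, Cxcl5 had 163 and 140.1 in the double mutant and 16137 and 16052 in wild type, a log2 difference of -6.72 ± 1.202 (SE, adjusted p = 0.00436). Cxcl1 had 166 and 154 in the double mutant and 5427 and 5732 in wild type (adjusted p = 0.00584). Both act on CXCR2, the neutrophil receptor.

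Of the 14 tested genes among 19 NF-kB chemokines and cytokines, 4 rose and 4 fell, beside 6.67% and 8.12% of all genes. Those that rose include Cxcl9 and Ccl5, already described above. Csf1, the growth factor of macrophages, was among the higher ones at 41111 and 42173 in the double mutant and 12043 and 12130 in wild type (adjusted p = 0.0121), and Ccl20 was among the lower ones at 0 and 0 in the double mutant and 33.9 and 27.1 in wild type, at least 9.17-fold lower. Ccl2, a monocyte attractant, had 13934 and 13985 in the double mutant and 7148 and 7007 in wild type and did not pass the test (log2 difference 0.98 ± 0.46, SE, adjusted p = 0.193). The single mutants had far less of it, 138 and 133 in G34W and 1084 and 1094 in K27R, and the double mutant was called higher than both (adjusted p = 3e-06 and 0.00013). Among 20 genes of NF-kB feedback and the acute phase 1 rose and 6 fell, beside the same shares. Cfb, complement factor B, was the one that rose, with 3527 and 3499 in the double mutant and 50.3 and 59.96 in wild type (adjusted p = 4.8e-06). Lcn2, an iron-siderophore binder made in inflammation, had 13.3 and 16.5 in the double mutant and 3725 and 3810 in wild type (adjusted p = 0.00195). Without replicate 1 of the double mutant 4 of these 20 were called in place of 7. With close pairs counted as 1 sample 3 of the 14 and 1 of the 20 passed.

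The genes of G2 and mitosis fell without exception in the list. All 30 were lower in the double mutant, beside 8.12% of all genes, with a median log2 fold change of -3.89 and single values from -4.61 to -2.48. Mki67, the proliferation marker Ki-67, had levels of 540.1 and 505 in the double mutant and 12721 and 12782 in wild type, a log2 difference of -4.61 ± 0.68 (SE, adjusted p = 0.00139). Ccnb1 and Ccnb2 encode the cyclins that drive entry into mitosis. Ccnb1 had 244 and 222 in the double mutant and 4693 and 4810 in wild type (adjusted p = 0.000349), and Ccnb2 had 112 and 114 in the double mutant and 2465 and 2439 in wild type (adjusted p = 6.15e-05). In both genes the groups lay far apart while the libraries within a group lay close together. Cenpf, a kinetochore protein, had 145 and 131 in the double mutant and 2799 and 2871 in wild type. Prc1, which bundles the microtubules of the midzone, had 315 and 328 in the double mutant and 5974 and 5828 in wild type, and Aspm, a spindle pole protein, had 121 and 119 in the double mutant and 2391 and 2468 in wild type (adjusted p between 0.000125 and 0.000398 for these 3).

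Neither single mutant came near this level of mitotic RNA. The list summed to 9137 and 9150 in the double mutant, against 93054 and 163530 in G34W, 108260 and 111950 in K27R and 122220 and 121720 in wild type. Over the 14 libraries outside the double mutant it ran from 75947 to 195490, and the lowest of them held 8.30 times the sum of the higher double mutant library. All 30 genes were lower than in G34W, beside 12.1% of all genes, and all 30 were lower than in K27R, beside 14.0%. With close pairs counted as 1 sample 14 of the 30 passed against wild type, and in all other settings run all 30 did. In bulk RNA, fewer cells of a kind and less RNA per cell cannot be told apart, here fewer dividing cells and less mitotic RNA in each.

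Genes of DNA synthesis fell less. In the S phase list 23 of 34 were lower, beside 8.12% of all genes, with a median log2 fold change of -1.77, and all 34 differences were below 0. Tk1, thymidine kinase, had levels of 337 and 329 in the double mutant and 5183 and 5178 in wild type, a log2 difference of -3.96 ± 0.57 (SE, adjusted p = 0.00119). Rrm2, the regulated subunit of ribonucleotide reductase, had 438 and 457 in the double mutant and 4677 and 4655 in wild type (adjusted p = 0.00993). Cdc6, which loads the helicase at origins, had 192 and 227 in the double mutant and 1784 and 1688 in wild type (adjusted p = 0.0125). Ccne2, a cyclin of S phase entry, had 224 and 215 in the double mutant and 1668 and 1643 in wild type, and Uhrf1, which keeps DNA methylation through replication, had 1072 and 1017 in the double mutant and 7911 and 7849 in wild type. The summed level was 32817 and 31938 in the double mutant, 62880 and 115200 in G34W, 107460 and 107840 in K27R and 115950 and 115370 in wild type, so G34W replicate 1 lay nearer to the double mutant than the other libraries of these groups. Without replicate 1 of the double mutant 7 of the 34 were called and without replicate 2 8, and with close pairs counted as 1 sample none was, while all 34 had an unadjusted p under 0.05 in the main fit.

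The inhibitors encoded next to each other at the Ink4 and Arf locus moved the other way. Cdkn2b encodes p15, which blocks CDK4 and CDK6, and had levels of 759 and 797 in the double mutant and 0 and 0 in wild type, at least 268-fold higher (adjusted p = 7.8e-06). Cdkn2a, which encodes p16 and ARF, had 427 and 456 in the double mutant and 0.968 and 0 in wild type. That is a ratio of 912 with a counting interval of 164 to 36151 (adjusted p = 3.1e-06); the table gives 1 value for both products. Each single mutant had an intermediate level. Cdkn2b stood at 61.9 and 44.8 in G34W and 146 and 135 in K27R, and Cdkn2a stood at 37.5 and 39.4 in G34W and 115 and 69.8 in K27R. On the log2 scale the double mutant exceeded G34W by 3.86 ± 0.47 for Cdkn2b and 3.49 ± 0.31 for Cdkn2a, and exceeded K27R by 2.46 ± 0.47 and 2.29 ± 0.31 (SE, adjusted p between 3.5e-05 and 0.0044). In H3.3 G34R they stood between 138.9 and 169.1, in H3.3 G34W K36R between 25.6 and 36.2, and in the H3.1 groups at 13.5 or less, so for both genes the order of the groups ran from the double mutant through G34R, K27R, G34W, G34W K36R and the H3.1 groups to wild type. The libraries of neighbouring groups overlapped for H3.1 G34W and H3.1 wild type in Cdkn2b, and for no other neighbours. Both genes were also called with close pairs counted as 1 sample (adjusted p = 0.0184 and 0.0201).

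Other inhibitors did not follow. Cdkn1a, which encodes p21 and is a main target of p53, had 11081 and 11556 in the double mutant and 10138 and 10307 in wild type, a log2 difference of 0.15 ± 0.26 (SE, adjusted p = 0.775). Cdkn2c and Cdkn2d, the p18 and p19 members of the Ink4 family, fell. Cdkn2c had 443 and 491 in the double mutant and 1027 and 1023 in wild type (adjusted p = 0.00313), and Cdkn2d had 302 and 317 in the double mutant and 1095 and 1057 in wild type (adjusted p = 0.00265). Of the 6 inhibitors tested 2 thus rose and 2 fell, and with close pairs counted as 1 sample the 2 that rose passed.

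PRC2 writes the mark at lysine 27, and 2 of its 12 genes changed, beside 14.8% of all genes. Ezh2, the catalytic subunit of dividing cells, had levels of 902 and 822 in the double mutant, 1304 and 2004 in G34W, 2078 and 2098 in K27R and 2029 and 2006 in wild type, a log2 difference of -1.23 ± 0.29 to wild type (SE, adjusted p = 0.0187). Phf19, an accessory subunit that guides PRC2 to chromatin, had 56.6 and 59.4 in the double mutant and 424 and 443 in wild type (adjusted p = 0.00279). For Ezh2 the double mutant libraries lay below those of every other group. For Phf19 they lay below those of G34W, K27R, G34R and wild type only. Phf19 stood at 50.9 and 82.0 in H3.3 G34W K36R, 62.2 and 30.8 in H3.1 G34W and 69.7 and 44.0 in H3.1 wild type. Ezh1, the paralog of resting cells, had 2461 and 2437 in the double mutant and 2533 and 2539 in wild type, and the core subunits Eed and Suz12 did not pass the test (adjusted p = 0.955, 0.786 and 0.263 for Ezh1, Eed and Suz12). The demethylases Kdm6a and Kdm6b, the lysine 36 methyltransferases Nsd1, Whsc1 and Setd2 and the rest of the 14 tested enzymes of lysine 27 and 36 gave no call by limma, with 2 at an unadjusted p under 0.05. Kdm6b, at 1640 and 1748 in the double mutant and 868 and 908 in wild type, was near the threshold (adjusted p = 0.0944). In PRC1, the complex that reads the mark, Cbx2 alone of 19 genes passed, at 517 and 552 in the double mutant and 1175 and 1185 in wild type (adjusted p = 0.0483), and it did not without either double mutant library. Nor did it with no filter on low values, or without any single library of G34R, G34W K36R, K27R or H3.1 wild type. Without either double mutant library 1 of the 12 PRC2 genes was called, and with close pairs counted as 1 sample no gene of PRC2 or PRC1 was.

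**Figure D3:**
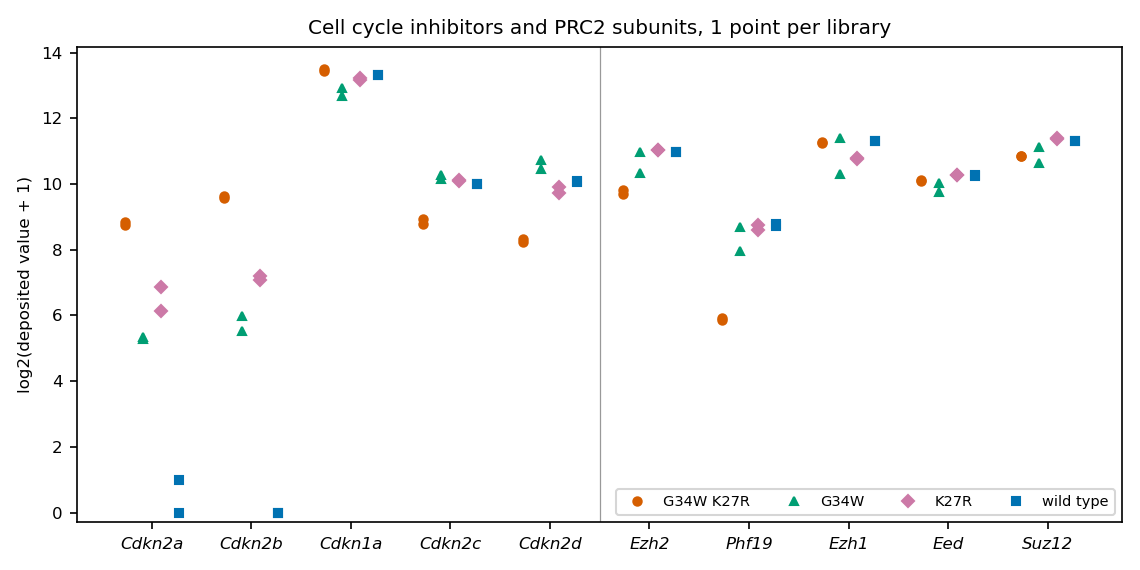
Levels of 5 cell cycle inhibitors (left of the line) and 5 PRC2 genes (right of it) as log2(deposited value + 1), 1 point per library, with G34W K27R, G34W, K27R and wild type from left to right for each gene. Among the groups shown, Cdkn2a and Cdkn2b are highest in the double mutant and at or near 0 in wild type. Cdkn2c, Cdkn2d, Ezh2 and Phf19 are lowest in the double mutant among these groups.

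Among H3 genes and their chaperones 1 of 12 rose and 3 fell, beside 6.67% and 8.12% of all genes. Daxx, the chaperone that places H3.3 at silent repeats with ATRX, had 2509 and 2656 in the double mutant and 1095 and 1138 in wild type (adjusted p = 0.000244). Asf1b had 209.6 and 205 in the double mutant and 1956 and 1971 in wild type, and the CAF-1 subunits Chaf1a and Chaf1b had 774 and 737, and 264 and 303, in the double mutant and 3262 and 3353, and 1215 and 1184, in wild type (adjusted p = 0.00554, 0.0358 and 0.0244). These 3 place H3 during DNA replication. Without either library of the double mutant 2 genes of the list were called, and with close pairs counted as 1 sample none was.

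The 15 largest decreases held no mitotic gene. Hapln1, the link protein that ties aggrecan to hyaluronan in cartilage, had levels of 2.22 and 0 in the double mutant and 930.1 and 911 in wild type, a ratio of wild type to double mutant of 830 with a counting interval of 246 to 7341 (adjusted p = 0.00238). Csmd1 had 0 and 0 in the double mutant and 110.35 and 113 in wild type, at least 33.6-fold lower (adjusted p = 0.000349). Tmem176a and its neighbour Tmem176b, a pair of membrane channel proteins, had 13.3 and 8.76, and 21.1 and 28.2, in the double mutant and 1468 and 1470, and 2335 and 2336, in wild type (adjusted p = 4.2e-06 and 9.7e-06). Serpina3g, an inhibitor of cathepsins, had 33.5 and 17.7 in the double mutant and 1972 and 1983 in wild type (adjusted p = 0.000182), and Serpina3i and Serpina3n of the same cluster fell too, 3 of the 4 tested; copies of this cluster share reads.

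For most of these genes wild type, not the double mutant, was the group apart. In 14 of the 15 the wild-type mean was the highest of the 8 groups, and in 3 the double mutant mean was the lowest, in Csmd1 tied at 0 with other groups. Csmd1 was at or under 1.96 in all 14 libraries other than wild type, and Hapln1 stood at 11.3 and 283 in G34W and at 4.25 and 3.74 in K27R. Lcn2 stood at 222 and 39.4 in G34W and at 14.9 and 8.72 in K27R. The largest increases differed in this: in 14 of the 15 the double mutant mean was the highest of the 8 groups, and in 8 the wild-type mean was the lowest, in Cxcl9, H28 and Cxcl11 tied at 0 with other groups. Arhgef5 was the exception, at 294 and 296 in the double mutant and 0 and 0 in wild type but higher still in H3.3 G34W K36R and both H3.1 groups. Genes picked for the size of 1 difference tend to stand at an end of the scale, so these counts describe the picked genes.

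**Figure D4:**
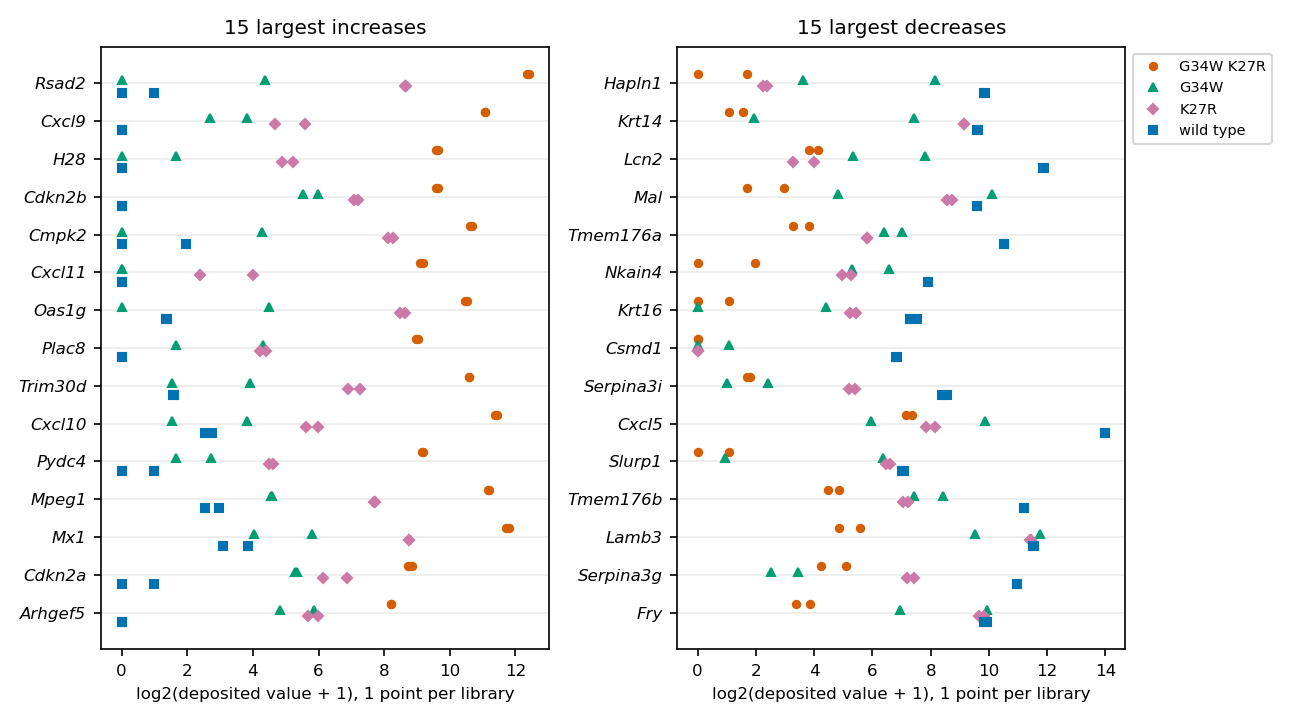
Levels of the 15 genes with the largest increases (left) and the 15 with the largest decreases (right) that the naming rule gave, as log2(deposited value + 1), 1 point per library, with G34W K27R, G34W, K27R and wild type from top to bottom for each gene. On the left the double mutant lies to the right of the other 3 groups for every gene, and on the right the single mutants are spread, some near wild type and some at or below the double mutant.

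Keratinocyte genes formed a group among the decreases that was picked after its values were seen. Krt14, a keratin of basal epidermis, had 1.11 and 1.95 in the double mutant, 2.82 and 171 in G34W, 560.0 and 567 in K27R and 775 and 782 in wild type (adjusted p = 0.00597 against wild type). Lamb3, a laminin chain of the skin's basement membrane, had 46.6 and 28.2 in the double mutant, 739 and 3459 in G34W, 2718 and 2753 in K27R and 2982 and 2906 in wild type (adjusted p = 0.000245). Both genes were also low in H3.3 G34W K36R and the H3.1 groups, Krt14 at 1.76 or less and Lamb3 at 122 or less. In G34R Krt14 stood at 77.4 and 78.7 and Lamb3 at 4244 and 4168. Trp63, the regulator of stratified epithelium, had 47.7 and 49.6 in the double mutant and 590 and 612 in wild type. Of 22 such genes 13 were tested, and 8 were lower and none higher, beside 8.12% and 6.67% of all genes. Krt6a, Krt6b and Krt17 were among those at or under the floor in all 4 compared libraries. With close pairs counted as 1 sample 1 gene passed. The 7 epithelial markers summed to 23.3 and 29.2 in the double mutant and 940 and 979 in wild type, with Epcam, Krt8, Krt18 and Cldn4 at or under the floor in both groups, and their part in these results was not tested.

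Chondrocyte genes fell as well. In a list of 20, 16 were tested, 7 were lower and none was higher, beside 8.12% and 6.67% of all genes, with a median log2 fold change of -2.67. The list summed to 22571 and 23756 in the double mutant and 99300 and 99415 in wild type. Low sums were not particular to the double mutant. H3.3 G34W K36R had 30685 and 30065, H3.1 G34W 23480 and 19812, and H3.1 wild type 21346 and 16318. Sums were higher in K27R, at 50914 and 47646, and in G34R, at 79637 and 79659. Sox6, a partner of SOX9 in cartilage, had levels of 142 and 143 in the double mutant and 1606 and 1675 in wild type, a log2 difference of -3.52 ± 0.62 (SE, adjusted p = 0.00418). Matn3, a matrix protein of growing cartilage, had 3.33 and 8.76 in the double mutant and 90.0 and 89.1 in wild type (adjusted p = 0.000297), and Col9a1, a chain of cartilage collagen, had 273 and 249 in the double mutant and 1647 and 1727 in wild type. The groups did not overlap for these, nor for 11154 of all 12557 genes. Sox9 itself had 8461 and 9103 in the double mutant and 9338 and 9433 in wild type (adjusted p = 0.794), and Col2a1, the main cartilage collagen, had 5173 and 5547 in the double mutant and 48840 and 48957 in wild type without passing the test (adjusted p = 0.0932). Col2a1 also varied between the G34W libraries, at 4377 and 69620. Without either G34W library 11 of the 16 were lower, and with close pairs counted as 1 sample 1 was.

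Some matrix genes rose and others fell. Of 12 small leucine-rich proteoglycans 3 rose and 3 fell, beside 6.67% and 8.12% of all genes. Dcn, decorin, which shapes collagen fibrils and binds TGF-beta, had 22703 and 23569 in the double mutant and 1403 and 1326 in wild type (adjusted p = 0.000473), Lum had 2463 and 2446 in the double mutant and 106 and 117 in wild type, and Kera had 115 and 116 in the double mutant and 0 and 0 in wild type, at least 39.7-fold higher. Fmod, which shares binding sites on collagen with Lum, fell to 26.6 and 20.4 in the double mutant, against 1638 and 1578 in wild type (adjusted p = 0.000814). Of 21 elastic fibre genes 3 rose and 6 fell, beside the same shares. Eln, elastin, had 9424 and 10563 in the double mutant and 39433 and 39418 in wild type (adjusted p = 0.00863), whereas both single mutants stood above wild type, at 141240 and 153880 in G34W and 63646 and 56629 in K27R. H3.3 G34R was higher still, at 326260 and 318780. Eln was far below the double mutant in H3.3 G34W K36R, at 63.7 and 75.8, and in the H3.1 groups, at 26.9 or less. Ltbp4, which ties latent TGF-beta to elastic fibres, had 1428 and 1479 in the double mutant and 61.0 and 62.0 in wild type. Of 34 collagen chains 1 rose and 4 fell, a share near the 14.8% of all genes called, with Col15a1 at 4594 and 4724 in the double mutant and 522 and 528 in wild type. Without either G34W library 14 elastic fibre genes and 10 collagen chains were called, without either H3.1 G34W library 8 collagen chains, and without replicate 1 and 2 of the double mutant 3 and 2 chains. None of these 3 lists had a call with close pairs counted as 1 sample.

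Genes of bone and smooth muscle were likewise divided. Dmp1 and Phex, genes of bone-embedded osteocytes, had 577 and 557, and 927 and 916, in the double mutant and 11.6 and 5.81, and 35.4 and 20.2, in wild type (adjusted p = 0.00076 and 0.0186). Alpl, the alkaline phosphatase of mineralising cells, fell to 2.22 and 6.81 in the double mutant, against 52.3 and 45.5 in wild type (adjusted p = 0.00334). Runx2, the osteoblast regulator, had 1908 and 2038 in the double mutant and 1945 and 2085 in wild type and was not called. Of 13 osteoblast genes 3 rose and 1 fell, beside 6.67% and 8.12% of all genes, and without either double mutant library 2 were called. Tagln, an actin-binding protein of smooth muscle, had 7758 and 7576 in the double mutant and 453 and 433 in wild type (adjusted p = 0.0031), while Cnn1 fell to 2.22 and 2.92 in the double mutant, against 93.9 and 93.0 in wild type (adjusted p = 0.00168). Tagln had similar levels in H3.3 G34W K36R, at 7376 and 7333, and in H3.1 wild type, at 6396 and 11399. Of 15 contractile genes 3 rose and 2 fell, beside the same shares; 2 were called without either double mutant library and 9 without either H3.1 G34W library. With close pairs counted as 1 sample neither list had a call.

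In a list of FGF and MAPK genes with ligands, receptors and feedback regulators, 7 of 20 rose and 2 fell, beside 6.67% and 8.12% of all genes, with a median log2 fold change of 1.12. Dusp6, the phosphatase of ERK, had levels of 2467 and 2604 in the double mutant, 429.8 and 452 in G34W, 905 and 907 in K27R and 301 and 304 in wild type, a log2 difference of 3.06 ± 0.36 to wild type (SE, adjusted p = 0.000416). Spry2, an inhibitor of receptor signalling, had 6338 and 6593 in the double mutant and 709.5 and 719.7 in wild type (adjusted p = 0.00094). Etv4, a transcription factor downstream of ERK, had 465 and 484 in the double mutant and 67.8 and 58.1 in wild type (adjusted p = 0.0131). For Dusp6 and Spry2 the double mutant had the highest level of the 4 groups. Other members did not all follow. Etv4 was higher in H3.1 wild type, at 1325 and 1678, than in the double mutant. Dusp4 had 901 and 991 in the double mutant but 1324 and 1181 in K27R. The receptor genes Fgfr2 and Fgfr3 were the 2 that fell. No member passed with close pairs counted as 1 sample.

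In other signalling lists single genes stood out. Ctgf, a secreted target of TGF-beta and YAP, had 81683 and 80088 in the double mutant, 15549 and 20891 in G34W, 18777 and 18838 in K27R and 6350 and 6205 in wild type (adjusted p = 0.0361 against wild type). It was also high in H3.1 wild type, at 60168 and 71105, and in replicate 1 of H3.1 G34W, at 62101 against 4890 in replicate 2. Gdf6, a BMP-type ligand of joints, had 421 and 449.5 in the double mutant and 7.74 and 5.81 in wild type (adjusted p = 0.000349). Dkk2, a Wnt antagonist, had 222 and 183 in the double mutant and 1.94 and 5.55 in wild type (adjusted p = 0.00204), and Gli1, a target of Hedgehog signalling, fell to 1.11 and 3.89 in the double mutant, against 106 and 117 in wild type (adjusted p = 0.0036). Robo1, a receptor of Slit guidance proteins, had 218 and 227 in the double mutant and 0 and 1.94 in wild type (adjusted p = 0.000253). Mest, an imprinted gene, had 1144 and 1200 in the double mutant and 92.0 and 89.1 in wild type (adjusted p = 0.00076) but far more in G34W, 4590 and 5234, so the double mutant lay between (log2 difference to G34W -2.06 ± 0.40, SE, adjusted p = 0.0046).

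Of 26 genes of glycolysis and hypoxia 1 rose and 8 fell, beside 6.67% and 8.12% of all genes, with Car9, a carbonic anhydrase induced by hypoxia, at 31.1 and 35.0 in the double mutant and 303 and 316 in wild type (adjusted p = 0.00066) and Adm, adrenomedullin, the one that rose, at 6036 and 6245 in the double mutant and 1764 and 1738 in wild type. Without either library of H3.1 G34W 14 of the 26 were called, without either library of G34W 16, and with close pairs counted as 1 sample none. Of 22 cholesterol synthesis genes 3 fell against wild type, Idi1, Sqle and Stard4, beside 8.12% of all genes. None did without either double mutant library. In the main fit 21 of the 22 differences were below 0. Against G34W 19 of the 22 were lower, beside 12.1% of all genes, and against K27R 20 were, beside 14.0%. Of 38 genes of oxidative phosphorylation limma called none, with 1 at an unadjusted p under 0.05. Of 42 ribosomal protein genes it called Rpl23, lower in the double mutant, with 14 at an unadjusted p under 0.05, all lower. For 41 of these 42 the difference was below 0. In these last 3 lists the shares called against wild type did not exceed the 14.8% of all genes called in either direction.

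**Figure D5:**
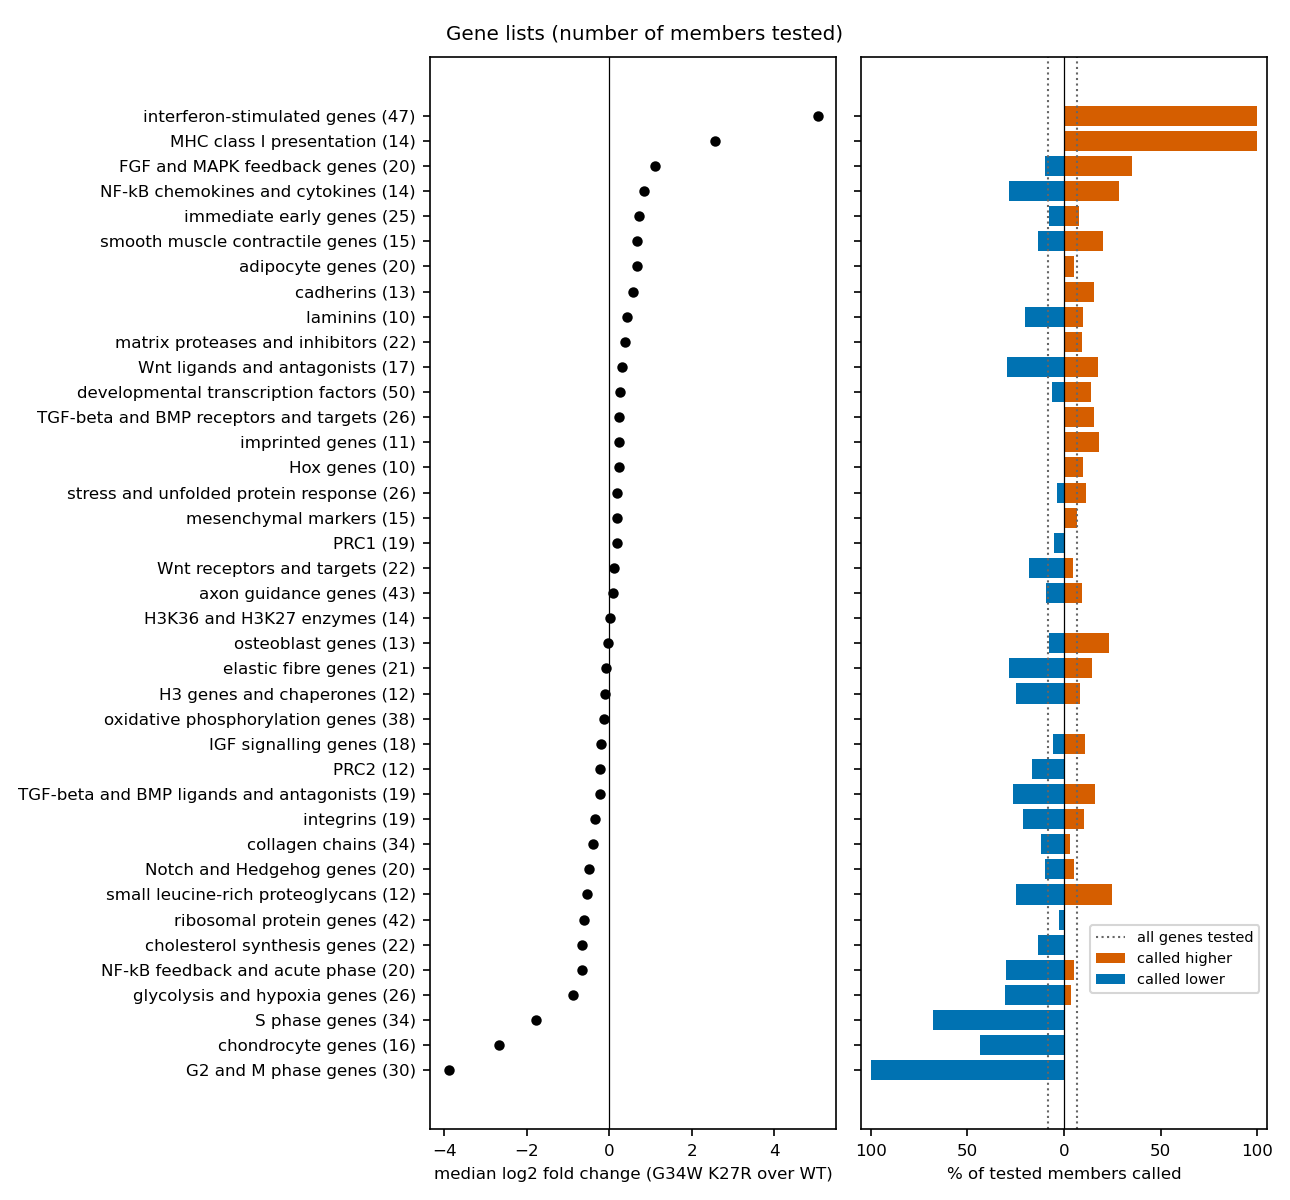
Gene lists with at least 10 tested members, the number tested in brackets. The left panel gives the median log2 fold change of each list in the double mutant over wild type, and the right panel gives the percentage of tested members called higher (orange, to the right) and lower (blue, to the left), with dotted lines at the 6.67% and 8.12% of all genes tested. Interferon-stimulated and MHC class I genes stand at 100% higher and G2 and M phase genes at 100% lower.

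Some changes lay side by side in the genome. Among 11182 genes that could be placed in order, there were 10 runs of at least 4 neighbouring genes called higher, with 48 genes, and 2 runs called lower, with 9 genes. The longest runs held 6 genes. One on chromosome 17 joined the MHC class I genes Psmb9, Tap1, Psmb8 and Tap2 with the class II genes H2-Ab1 and H2-Aa, one on chromosome 5 held the guanylate-binding proteins Gbp8, Gbp9, Gbp4, Gbp10, Gbp6 and Gbp11, and one on chromosome 1 ended in Sp110, Sp140 and Sp100. Members of such clusters are often copies of 1 another and share reads. The Cdkn2a and Cdkn2b pair is too short to count as a run.

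Against G34W 1200 genes were higher (9.56%) and 1516 lower (12.1%), and against K27R 1509 were higher (12.0%) and 1759 lower (14.0%), by limma at an adjusted p under 0.05. The single mutants count as 2 samples each and wild type as 1, so these counts are not on a like footing with the 1858 against wild type. With the wild-type libraries counted separately the counts were 3186 against G34W, 3873 against K27R and 3536 against wild type. Against G34W 1298 genes were called without either double mutant library and 350 with close pairs counted as 1 sample. Against K27R 1386 and 1415 were called without replicate 1 and 2 of the double mutant, 1448 and 1405 without those of K27R, and none with close pairs counted as 1 sample, where 1239 had an unadjusted p under 0.05.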

How the data were processed

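Polyadenylated RNA of 16 libraries was sequenced. The authors used RSEM 1.2.4 and mm9, per the submitters' processing notes, and the deposited signal is an estimate per gene scaled by a median normalization, per the name of the deposited table. Aligner and annotation are not given in the sources used here. Each library's values were multiples of a hundredth of 1 step, and 41.5% to 47.6% of the values above 0 were whole reads (tolerance 0.01), so counts could not be recovered. The step gives 26.02 to 49.1 M reads per library.

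log2(value + 1) was tested two-sided with limma 3.58.1 in R 4.3.3 (trend, robust) over all 8 groups, 15 samples with the wild-type pair averaged, leaving 7 residual degrees of freedom, with Benjamini-Hochberg adjustment over 12557 genes. The fit was tried on simulated counts with the same spread for all genes and libraries. The pairs here differ widely in spread, so that trial does not show how far the calls hold in these data. Fold changes of low genes are understated by the added 1. Named are the 15 largest changes each way with a mean of at least 50 in either group and no overlap, up to 6 called members of each of 48 lists, and 18 fixed genes; other genes named, and the lists of keratinocyte genes and those given under other observations, were picked after their values were seen. Members and lists were chosen with earlier results of these data known. Replicate numbers do not pair the samples. Some genes are not reported here.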

Additional observations from a re-analysis of the deposited data

How the results depend on the processing

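Of 191 named genes 179 were called, most of them named by a rule that required a call. None changed direction under any alternative run that tested it, but these runs reuse the same libraries. Leaving out a library outside the compared groups cannot alter the log2 difference itself. With a minimum mean of 50 not all named genes were tested. The count of 1858 genes called against wild type stayed within 1.5 times under other pseudocounts (1819 at 0.5, 1969 at 5), no filter (1902), a minimum mean of 50 (1625), centring on the median ratio (1858), quantile normalization (2293) and eBayes without trend and robust (1812). It was 8564 in a fit of the compared groups alone, which has 1 residual degree of freedom, 8662 without the 3 groups whose libraries differ most, an alternative chosen after seeing the data, 3536 with the wild-type libraries counted separately, and 143 with close pairs counted as 1 sample, which leaves 3 residual degrees of freedom. Leaving out each library in turn gave 932 to 2916. The count of 2716 against G34W was 893 with the compared groups alone and 350 with close pairs as 1, and ran from 1298 to 3478 when each library was left out. The count of 3268 against K27R was 9604 with the compared groups alone, 9701 without those 3 groups and 0 with close pairs as 1, and ran from 1386 to 4370. With close pairs as 1, 149 of the 191 named genes lost their call. Some lists also had more calls with the compared groups alone: 34 S phase genes, 13 chondrocyte genes, 20 elastic fibre genes and 27 collagen chains.

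A replicate block with the wild-type libraries counted separately gave 3337 genes against wild type. The numbers share only a label: over 28 pairs of groups replicate differences correlated between -0.267 and 0.0613, and at 0.0169 in the compared pair. Depth limits the genes at or under 3 reads, whose folds are bounds or intervals.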

Other observations

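The lists given here were picked after their values were seen, so they carry no test beyond the calls of single genes, and their counts stand beside 6.67% of all genes called higher and 8.12% called lower. With close pairs counted as 1 sample, 6 of the kinetochore genes, none of the DNA repair genes, p53 targets and histone genes, 2 of the nucleic acid sensors and 1 of the MHC class II genes were called. The kinetochore and centromere genes, which join chromosomes to the spindle, were lower in 23 of 24 and higher in 1, with a median log2 fold change of -2.99. Ndc80, which grips the microtubule, had levels of 114 and 114 in the double mutant and 1938 and 1876 in wild type, and Cenpa, the centromeric H3 variant, had 81.5 and 92.4 in the double mutant and 1255 and 1284 in wild type. Zwint was the one that rose, with 4050 and 4044 in the double mutant and 1920.5 and 1909 in wild type. DNA repair genes were lower in 19 of 23, with Brca1 at 301 and 264 in the double mutant and 2352 and 2376 in wild type. Of 21 tested p53 targets 1 rose, Mdm2, at 6958 and 6826 in the double mutant and 2932 and 2938 in wild type, and 3 fell, Gdf15, Fas and Perp. Of 43 tested replication-dependent histone genes limma called 1, Hist1h3h, at 515 and 497 in the double mutant and 3126 and 3251 in wild type; these transcripts mostly lack a poly(A) tail.

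The interferon genes of the list, Ifnb1, Ifna1, Ifna2, Ifna4, Ifng and Ifnk, were at or under the floor of 3 reads in all 4 compared libraries, while Socs1, a feedback inhibitor of the receptor pathway, had 569 and 731 in the double mutant and 152 and 142 in wild type. Of 20 sensors of foreign or misplaced nucleic acid 12 rose and 1 fell. Ifih1, which encodes MDA5, a detector of double-stranded RNA, had 3388 and 3289 in the double mutant and 166 and 168 in wild type, and Ifi204 had 12468 and 11868 in the double mutant and 890 and 938 in wild type. Aim2, a detector of DNA in the cytoplasm, was the one that fell, to 99.5 and 81.9 in the double mutant, against 375 and 396 in wild type. MHC class II genes rose in 3 of 7. Ciita, their main activator, had 121 and 128 in the double mutant and 9.68 and 12.6 in wild type, H2-Aa had 247 and 243 in the double mutant and 0 and 2.91 in wild type, and Cd74 had 1147 and 1259 in the double mutant and 293 and 286 in wild type without passing the test (adjusted p = 0.518).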
